A study of Mus musculus with 6 samples.

Results

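The 10 genes described here encode Toll-like receptors of monocytes and macrophages and the proteins that receptors of this family work with: Tlr1, Tlr2, Tlr4, Tlr6, Tlr7, Tlr9, Tlr13, Cd14, Ly96 and Myd88. They were taken by name, as the array probes whose gene name in the scanner files equals a listed symbol. All 10 are on the array, through 12 probes, among 31473 genes in all, and all 10 were bright enough to be tested, as were 22127 genes of the series. The RNA was that of M-MDSCs, the monocytic kind of myeloid-derived suppressor cells, which are immature monocyte-like cells able to dampen T cell responses. They had been isolated by FACS from C57BL/6 mice, either from marrow or from lung tissue. Each of 6 dual-colour arrays carried a vehicle-treated (mock) RNA in the green channel (Cy3) and, in the red channel (Cy5), RNA from mice given azacytidine (which blocks DNA methyltransferases) together with entinostat (which blocks histone deacetylases). There were 3 arrays of bone marrow cells and 3 of lung cells. Treated animals were combined in pools of 3 to 6 and mock animals in pools of 1 to 2. Mock mice were 6 to 8 weeks old. The sources used here give no dose, no schedule and no age of the treated mice. The labels call the arrays of a tissue biological replicates.

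Toll-like receptors are sensors of microbial molecules on innate immune cells. TLR2 pairs with TLR1 or TLR6 to bind bacterial lipoproteins, and TLR4 binds lipopolysaccharide together with MD-2, the product of Ly96, after CD14 has handed the ligand over. TLR7, TLR9 and TLR13 sit in endosomes and bind single-stranded RNA, unmethylated CpG DNA and bacterial ribosomal RNA, respectively. All of these receptors signal through the adaptor MyD88 and the IRAK kinases to NF-kappaB and to interferon regulatory factors, and so switch on cytokine and chemokine genes. In monocytes these signals drive inflammatory output, and several products of the pathway act back on it as brakes.

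The probes that read Tlr1 and Tlr2 are shown because their receptors are related and because these 2 probes were the most alike of the 45 pairs among the 10 probes used. Capitals mark the 29 bases that are identical when the 60-base probes are laid on each other without gaps, and the other 44 pairs shared 17 to 24 bases. By the coordinates in the scanner files (mouse build mm9), the Tlr1 probe lies at chr5:65316115-65316174 and the Tlr2 probe at chr3:83640344-83640403, both on the minus strand. Exon and UTR positions of the probes were not analysed here, and cross-hybridisation between them was not tested.
Tlr1: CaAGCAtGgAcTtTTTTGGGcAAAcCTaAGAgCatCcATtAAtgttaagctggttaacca
Tlr2: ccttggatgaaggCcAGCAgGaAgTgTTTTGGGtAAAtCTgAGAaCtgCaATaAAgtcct

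RefSeq's promoter table (build GRCm38.p6) held 6 of the 10 genes, and the stretches just before the start of 4 of them are shown: Tlr2, Myd88 and Tlr6, the 3 of the 6 that were called in a response, and Tlr9, which was 2.97-fold higher in mock bone marrow cells. Tlr1 and Tlr13, which was 1.16-fold higher in mock bone marrow cells, are in the table but not shown. Capitals mark matches, on either strand, to 5 motifs searched in the 250 bases before each start: the NF-kappaB motif by its consensus, found in 5.9% of the 32851 promoters in the table, the interferon regulatory factor motif GAAANNGAAA in 3%, the PU.1 motif GAGGAAG in 10.6%, the AP-1 motif TGANTCA in 6.7% and the GC box GGGCGG in 32.7%. The AP-1 motif reads alike on both strands, so a match on the 2 strands is 1 site. The Tlr2 stretch (chr3:83841609-83841808, minus strand) held overlapping NF-kappaB matches starting 173 and 172 bases before the start, the latter on both strands, and GC boxes at 69 and 48 bases. The Myd88 stretch (chr9:119340019-119340118, minus strand) held an interferon regulatory factor match at 40 bases and a GC box at 55 bases. The Tlr6 stretch belongs to the first of 2 starts in the table (chr5:64959167-64959316, minus strand) and held overlapping interferon regulatory factor matches at 116 and 110 bases. The Tlr9 stretch (chr9:106222448-106222597, plus strand) held a PU.1 match at 112 bases and an AP-1 match at 58 bases. Of the genes not shown, Tlr13 and Tlr1 also held PU.1 matches, at 83 and 23 bases. A match describes letters only; binding was not measured.
Tlr2: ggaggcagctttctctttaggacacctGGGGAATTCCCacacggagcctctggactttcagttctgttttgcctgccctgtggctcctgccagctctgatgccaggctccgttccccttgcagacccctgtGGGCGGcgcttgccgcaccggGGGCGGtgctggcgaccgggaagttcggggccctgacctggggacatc
Myd88: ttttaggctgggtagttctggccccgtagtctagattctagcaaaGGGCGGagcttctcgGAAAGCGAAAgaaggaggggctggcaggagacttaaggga
Tlr6: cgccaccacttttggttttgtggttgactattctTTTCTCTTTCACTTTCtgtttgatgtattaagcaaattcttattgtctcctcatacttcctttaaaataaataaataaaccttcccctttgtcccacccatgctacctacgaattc
Tlr9: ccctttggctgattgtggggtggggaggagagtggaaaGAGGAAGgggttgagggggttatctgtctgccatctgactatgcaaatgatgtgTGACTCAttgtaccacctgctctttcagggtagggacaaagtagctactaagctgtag

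The response of a gene is given as its log2 ratio, red over green, so that a value above 0 means more RNA in the treated cells, and a gene is called when its adjusted p (limma, Benjamini-Hochberg over all 22127 genes) is under 0.05. Every treated RNA was red and every mock RNA green, so that dye and treatment cannot be told apart, and each tissue had its own slide and scan, so that tissue and slide cannot be told apart in any comparison between tissues. Between 49.9% and 62.8% of an array's spots stood well above background for the mock RNA, and between 55.1% and 69.5% for the treated RNA. The probe used for each of the 10 genes was well above background on all 6 arrays in both channels, and none of their spots was saturated. The precision is limited by the 3 arrays in each tissue.

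In bone marrow M-MDSCs the treated cells had less Tlr6 and Tlr7 RNA than the mock cells, 1.52-fold and 1.43-fold, and none of the 10 genes rose (limma; 5 had an unadjusted p under 0.05, all 5 lower). Calls in either direction made up 14.4% of all genes (7.25% higher and 7.12% lower), against 2 of these 10. All 10 mean log2 ratios were below 0, with a median of -0.28 against 0.023 for all genes, although they were below 0 for only 3 of 10 when arrays were centred on their median in place of the intensity-dependent (loess) correction. In lung M-MDSCs Tlr2 and Tlr4 rose 1.53-fold and 1.57-fold and Myd88 fell 1.39-fold. There 33.9% of all genes were called (19.9% higher and 14% lower), and the median log2 ratio of the 10 genes was -0.02 against 0.014 for all genes. The response differed between the tissues for Tlr2 and Tlr4, both higher in lung, where 15.2% of all genes differed (9.78% higher in lung and 5.44% lower). With median centring no member was called in either tissue or in the difference between them (limma; 0, 2 and 0 had an unadjusted p under 0.05 in bone marrow, lung and the difference). That setting moved the median of all genes to 0.200 in bone marrow and 0.122 in lung.

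**Figure D1:**
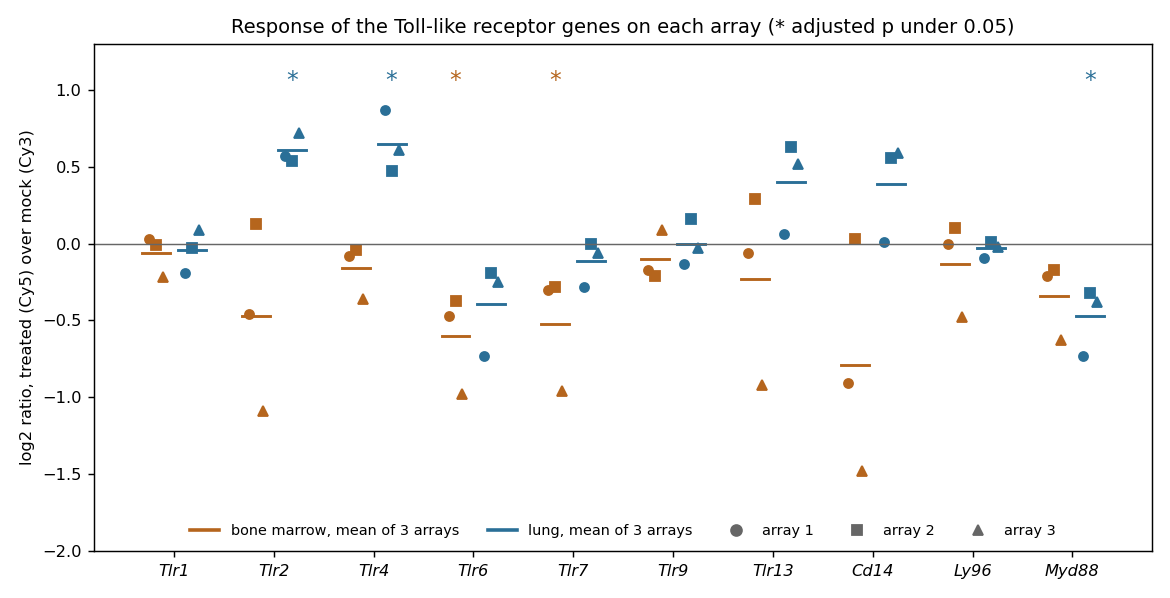
Log2 ratio of treated over mock RNA (vertical axis) on each of the 6 arrays for the 10 genes, bone marrow in brown and lung in blue, with a line at the mean of 3 arrays and an asterisk where the adjusted p was under 0.05. Bone marrow array 3 lies lowest of the bone marrow arrays for 9 of 10 genes, and the lung values of Tlr2 and Tlr4 lie above all their bone marrow values.

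Tlr2, the shared partner of the lipoprotein receptors, had log2 ratios of -0.46, 0.13 and -1.09 on bone marrow arrays 1 to 3 and of 0.57, 0.54 and 0.72 on lung arrays 1 to 3. It was higher in the treated cells on all 3 lung arrays, while the bone marrow arrays lay on both sides of 0, and the 2 sets did not overlap. The mean was -0.47 ± 0.61 (SD, n = 3; adjusted p = 0.136, limma) in bone marrow and 0.61 ± 0.10 (SD, n = 3; adjusted p = 0.0439, limma) in lung. The difference of 1.08 ± 0.27 (SE) had an adjusted p of 0.0374 (limma). Its 10 spots on each array varied by an SD of 0.017 to 0.028, far less than the arrays varied among themselves in bone marrow. The lung call sat close to the threshold. Its adjusted p was 0.0791 with the scanner's processed signals, 0.0702 with scaling between arrays and 0.055 with no filter on dim probes (limma). It was 0.0767 without bone marrow array 1, and 0.1, 0.116 and 0.143 without lung arrays 1, 2 and 3. The adjusted p of the difference was likewise 0.0933 without bone marrow array 1 and 0.0658, 0.0817 and 0.0814 without lung arrays 1, 2 and 3. Without bone marrow array 2 the bone marrow value became -0.77 with an adjusted p of 0.0489 (limma), and without array 3 it was -0.16.

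Tlr4, the lipopolysaccharide receptor, had log2 ratios of -0.08, -0.04 and -0.36 in bone marrow and of 0.87, 0.47 and 0.61 in lung, with no overlap between the tissues. All 3 lung arrays showed more Tlr4 RNA in the treated cells and all 3 bone marrow arrays slightly less. The lung mean was 0.65 ± 0.20 (SD, n = 3; adjusted p = 0.0021, limma) and the bone marrow mean -0.16 ± 0.17 (SD, n = 3; adjusted p = 0.28, limma). The tissues differed by 0.81 ± 0.14 (SE; adjusted p = 0.00945, limma). The lung call and the difference were kept when any array was left out, and were lost with median centring, where the lung value was 0.87 with an adjusted p of 0.092 (limma).

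Tlr6, which pairs with TLR2 for diacylated lipoproteins, had log2 ratios of -0.47, -0.37 and -0.98 in bone marrow and of -0.73, -0.19 and -0.25 in lung. It was lower in the treated cells on all 6 arrays, and the tissues overlapped. The means were -0.60 ± 0.33 (SD, n = 3; adjusted p = 0.0321, limma) in bone marrow and -0.39 ± 0.29 (SD, n = 3; adjusted p = 0.07, limma) in lung, and they differed by 0.22 ± 0.20 (SE; adjusted p = 0.483, limma). The bone marrow call was lost without bone marrow array 1, 2 or 3 (adjusted p = 0.0752, 0.0755 and 0.124, limma) and without lung array 2 (0.0517), and without bone marrow array 3 the lung value was called (adjusted p = 0.0356, limma).
Tlr1, the partner of TLR2 for triacylated lipoproteins, is the neighbour of Tlr6 on chromosome 5, with 28190 bases between their probes. Its log2 ratios ran from -0.22 to 0.09 over the 6 arrays, with means of -0.06 ± 0.14 (SD, n = 3; adjusted p = 0.615, limma) in bone marrow and -0.04 ± 0.14 (SD, n = 3; adjusted p = 0.715, limma) in lung. The tissues differed by 0.02 ± 0.11 (SE; adjusted p = 0.917, limma).

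Cd14, which delivers lipopolysaccharide to TLR4, varied most between arrays. Its log2 ratios were -0.91, 0.03 and -1.48 in bone marrow and 0.01, 0.56 and 0.59 in lung. The 2 low values came from bone marrow arrays 1 and 3, and bone marrow array 2 lay just above the lowest lung array. The means, -0.79 ± 0.76 (SD, n = 3; adjusted p = 0.0756, limma) in bone marrow and 0.39 ± 0.33 (SD, n = 3; adjusted p = 0.284, limma) in lung, did not pass, and neither did their difference of 1.17 ± 0.36 (SE; adjusted p = 0.0654, limma). Without bone marrow array 2 the bone marrow value was -1.20 (adjusted p = 0.0318, limma) and the difference 1.58 (adjusted p = 0.0238, limma). Ly96, which encodes the lipopolysaccharide-binding partner of TLR4, had ratios from -0.09 to 0.01 in lung and of 0, 0.10 and -0.48 in bone marrow. Its means of -0.13 ± 0.31 (SD, n = 3; adjusted p = 0.45, limma) in bone marrow and -0.03 ± 0.05 (SD, n = 3; adjusted p = 0.836, limma) in lung did not pass. Of the 3 parts of the lipopolysaccharide receptor, only Tlr4 was therefore called in lung.

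Tlr7, the endosomal sensor of single-stranded RNA, had log2 ratios of -0.30, -0.28 and -0.96 in bone marrow and of -0.28, 0 and -0.06 in lung. All 3 bone marrow arrays were low, array 3 the most, and the highest bone marrow value equalled the lowest lung value to 2 decimals. The bone marrow mean was -0.52 ± 0.38 (SD, n = 3; adjusted p = 0.0432, limma), the lung mean -0.11 ± 0.14 (SD, n = 3; adjusted p = 0.558, limma) and their difference 0.40 ± 0.19 (SE; adjusted p = 0.182, limma). Of its 2 other probes, the bright probe gave -0.88 ± 0.43 (SD, n = 3) in bone marrow and -0.23 ± 0.08 (SD, n = 3) in lung. The other gave 0.21 ± 0.14 and -0.01 ± 0.04 (SD, n = 3 each), and in the mock channel it was well above background on 0 bone marrow arrays and 1 lung array. The bone marrow call was lost without bone marrow array 1, 2 or 3 (adjusted p = 0.0706, 0.0888 and 0.102, limma) and without lung array 2 or 3 (0.073 and 0.0567), and with each tissue fitted separately (0.0595), and the value without bone marrow array 3 was -0.29.
Tlr9, the sensor of CpG DNA, had ratios from -0.21 to 0.16 over the 6 arrays, with means of -0.10 ± 0.17 (SD, n = 3; adjusted p = 0.471, limma) in bone marrow and 0 ± 0.15 (SD, n = 3; adjusted p = 0.989, limma) in lung. Of the 10 genes, it alone was not lowest on bone marrow array 3, where it read 0.09.
Tlr13, the sensor of bacterial ribosomal RNA, had ratios of -0.06, 0.29 and -0.92 in bone marrow and of 0.06, 0.63 and 0.52 in lung. All 3 lung values were above 0, but neither the lung mean of 0.40 ± 0.30 (SD, n = 3; adjusted p = 0.189, limma) nor the bone marrow mean of -0.23 ± 0.62 (SD, n = 3; adjusted p = 0.492, limma) passed. The tissues differed by 0.63 ± 0.30 (SE; adjusted p = 0.188, limma). Without bone marrow array 3 the lung value was called (adjusted p = 0.0474, limma).

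Myd88, the adaptor of all 7 receptors, had log2 ratios of -0.21, -0.17 and -0.63 in bone marrow and of -0.73, -0.32 and -0.38 in lung. It was lower in the treated cells on all 6 arrays, and the tissues overlapped. The lung mean of -0.47 ± 0.22 (SD, n = 3) passed with an adjusted p of 0.0161 (limma), and the bone marrow mean of -0.34 ± 0.26 (SD, n = 3) did not (adjusted p = 0.0857, limma). The tissues differed by -0.14 ± 0.16 (SE; adjusted p = 0.587, limma), which does not show that the response was the same in both. The 10 Myd88 spots varied by an SD of 0.018 to 0.033 within an array. The lung call was lost without lung array 1, where the value was -0.35 (adjusted p = 0.0692, limma).

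Bone marrow array 3 had the lowest ratio of its tissue for 9 of the 10 genes. Over all genes its log2 ratios had an SD of 0.330, against 0.254 and 0.276 on bone marrow arrays 1 and 2. Corrected negative control spots read 240.3 in Cy5 and 52.72 in Cy3 on bone marrow array 1. On arrays 2 and 3 they read 13.5 and 15.97 in Cy5 and 8.354 and 21.45 in Cy3. The part of this in the SDs was not tested. Without bone marrow array 3 no member was called in bone marrow (limma; 2 had an unadjusted p under 0.05), the median of the 10 was -0.18, and 3 of the 10 means were above 0. No member was called in bone marrow without bone marrow array 1 or lung array 2 either (limma; 3 and 4 had an unadjusted p under 0.05). In lung, array 1 was lowest for 8 of the 10. The shares of all genes lowest on bone marrow array 3 and lung array 1 are not given here, so these counts do not set the 10 genes apart. The ranks in bone marrow depended on the normalization. With median centring bone marrow array 1, and not array 3, was lowest of its tissue for all 10 genes. Cd14, for example, then read -1.29 on bone marrow array 1 and -0.41 on array 3. With scaling between arrays, bone marrow array 1 was lowest for Tlr6, Tlr9 and Cd14. In these sorted cells, fewer cells of a type and less RNA per cell cannot be told apart.

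**Figure D2:**
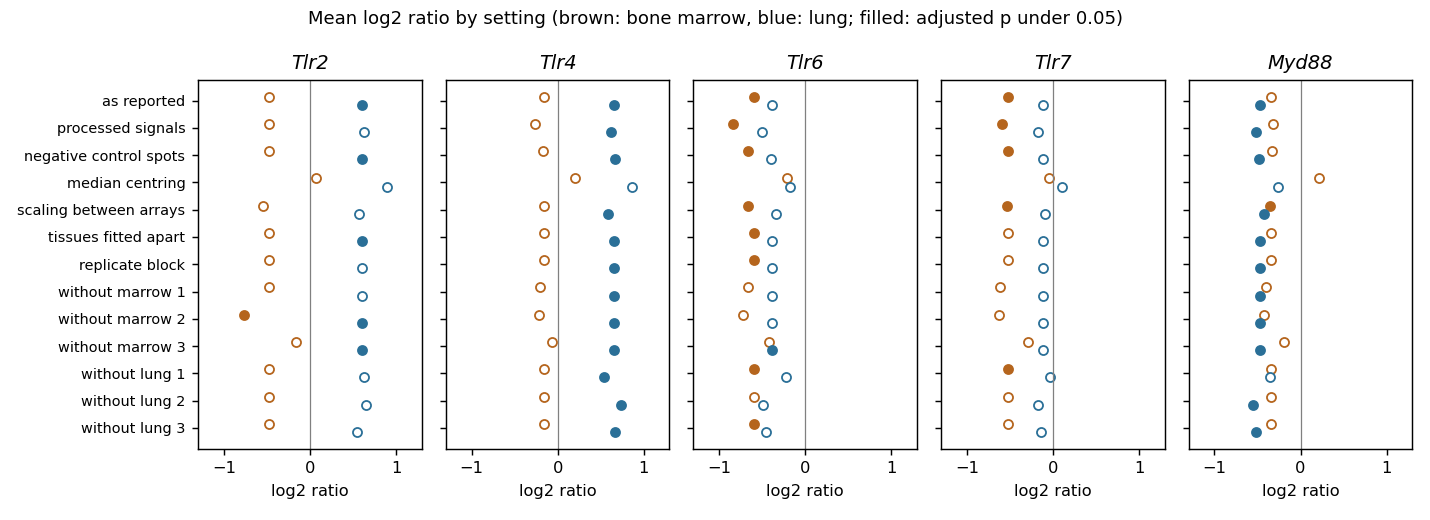
Mean log2 ratio (horizontal axis) of the 5 called genes under each processing setting or with an array left out (vertical axis), bone marrow in brown and lung in blue, filled where the adjusted p was under 0.05. Tlr4 in lung stays filled in all settings plotted except median centring, where its value is 0.87.

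The mock channels show how the 10 genes differ between the tissues without treatment. Lung M-MDSCs had more Cd14, Tlr2, Tlr7, Tlr1 and Tlr6 RNA and bone marrow M-MDSCs more Tlr9, Myd88 and Tlr13 RNA, so 8 of 10 were called where 65.9% of all genes were (29.6% higher in lung and 36.3% lower). The median lung minus bone marrow difference was 0.27 for the 10 genes and -0.038 for all genes. These levels come from the same mock RNAs as the ratios above, and are log2 intensities of each probe, so that they compare groups and not genes.
Cd14 read 11.73, 11.03 and 10.78 on the bone marrow arrays and 14.20, 13.80 and 13.68 on the lung arrays. The lowest lung array was far above the highest bone marrow array, and the lung mean was 6.55-fold higher, a log2 difference of 2.71 ± 0.24 (SE; adjusted p = 3.72e-05, limma).
Tlr2 read 12.30, 11.95 and 12.05 in bone marrow and 12.99, 12.98 and 12.75 in lung, a 1.75-fold difference (log2 0.81 ± 0.11, SE; adjusted p = 0.000406, limma). Tlr7 was 1.49-fold, Tlr1 1.46-fold and Tlr6 1.35-fold higher in lung (adjusted p = 0.00126, 0.002 and 0.00226, limma), and the arrays of the 2 tissues did not overlap for any of them. So the cell-surface partners Tlr1, Tlr2 and Tlr6 were all higher in lung, while Tlr4 and its partner Ly96 did not pass.
Tlr4 read 8.76, 8.79 and 8.87 in bone marrow and 8.83, 8.94 and 8.97 in lung, and the ranges overlapped (log2 difference 0.11 ± 0.07, SE; adjusted p = 0.213, limma). Ly96 differed by 0.09 ± 0.08 (SE; adjusted p = 0.352, limma).
Tlr9 went the other way, with 11.63, 11.57 and 11.09 in bone marrow and 9.82, 9.86 and 9.89 in lung. The bone marrow mean was 2.97-fold higher, a log2 difference of -1.57 ± 0.14 (SE; adjusted p = 3.55e-05, limma).
Myd88 read 12.07, 12.28 and 12.23 in bone marrow and 11.67, 11.46 and 11.39 in lung, 1.61-fold higher in bone marrow (adjusted p = 0.000474, limma). Tlr13 was 1.16-fold higher in bone marrow (adjusted p = 0.0455, limma), a small difference whose call was lost without bone marrow array 1 or 3 (both adjusted p = 0.114, limma) or lung array 1, 2 or 3 (0.0994, 0.0693 and 0.107), and whose sign turned to 0.19 with the scanner's processed signals. With median centring 4 of the 8 calls remained, and Myd88, Tlr6 and Tlr7 missed with adjusted p of 0.0681, 0.0539 and 0.0612 (limma).

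**Figure D3:**
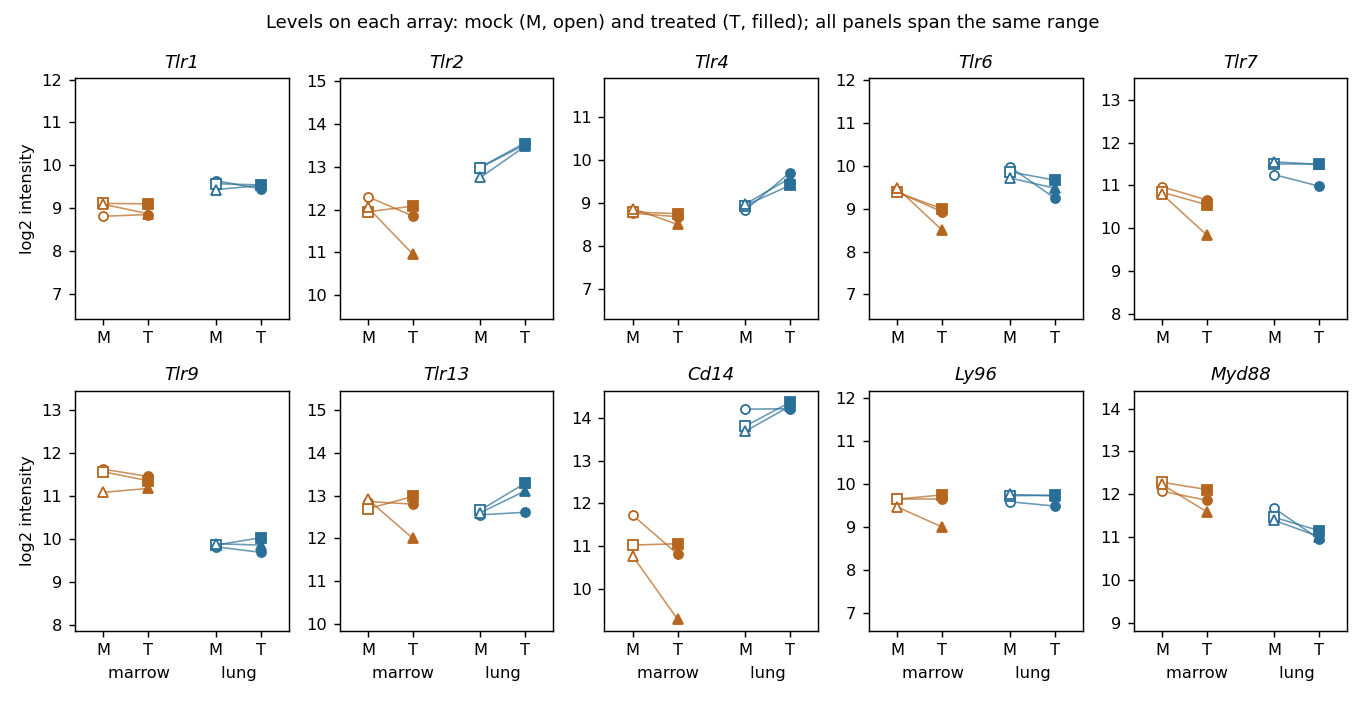
Log2 intensity (vertical axis, of the same span in every panel) of the 10 genes on each array, mock open and treated filled, lines joining the 2 RNAs of an array, bone marrow in brown and lung in blue. The gap between tissues is widest for Cd14 and, in the other direction, for Tlr9, and treated Tlr4 stands above mock Tlr4 on the lung arrays alone.

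Treated levels, read from the red channel, place the responses against these starting points. Treated lung Tlr2 read 13.56, 13.52 and 13.48, above all 3 mock lung arrays, and treated lung Tlr4 read 9.71, 9.41 and 9.58, also above all mock lung values. Cd14 read 14.21, 14.36 and 14.27 in treated lung and 10.82, 11.06 and 9.30 in treated bone marrow, with its lowest level on treated bone marrow array 3. Treated lung Myd88 read 10.95, 11.15 and 11.01, below all mock lung values and below all bone marrow values of either channel.

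Markers of the cell types that such a sort could hold also differed between the groups. Of all genes, 19.9% were called higher and 14% lower in lung, and 7.25% and 7.12% in bone marrow. The counts of markers below stand beside these shares. All 8 M-MDSC markers on the array, among them Cd14 itself, were well above background in every group on at least 1 array. In lung, 11 of 12 macrophage markers rose with treatment (median log2 ratio 1.73), and their summed intensity went from 60900 to 76700 on the mock channels to 165000 to 197000 on the treated. In bone marrow 2 of the 12 fell and none rose, with a median of -0.01. The sum there was 46800 to 51200 in mock and 20300 to 29200 in treated cells, but without Csf1r, which gave most of it, the ranges were 6750 to 7560 and 4450 to 7840 and overlapped. Mertk was well above background on no bone marrow array in either channel. The monocyte receptor gene Csf1r, which is on the macrophage and M-MDSC lists, had a log2 ratio of -1.14 in bone marrow and 0.76 in lung (adjusted p = 0.00298 and 0.00315, limma). Neutrophil markers rose in lung for 7 of 13 (median 1.32; summed intensity 35300 to 66900 in mock and 80300 to 163000 in treated cells), and in bone marrow 0 of 13 were called (limma; 2 had an unadjusted p under 0.05; mock sum 498000 to 523000, treated 537000 to 578000). The neutrophil markers were uneven over the lung arrays. Camp read 2.66, 2.22 and -0.77 on lung arrays 1 to 3, and S100a9 2.31, 3.35 and 0.26. On lung array 3 Ltf, Ngp, Mpo, Cxcr2 and Mmp8 were also below 0, and the other neutrophil markers were above it. Of 9 B cell markers tested, 8 fell in treated lung (median -1.36, with a sum of 4760 to 7220 in mock and 2090 to 2520 in treated cells).
Alveolar macrophage markers rose for 9 of 10 (mock sum 112000 to 131000, treated 150000 to 280000), lung epithelium markers for 7 of 10 (17100 to 31800 and 61500 to 95200) and endothelium markers for 7 of 8 (10800 to 14400 and 24000 to 30500). Chil3 gave most of the mock alveolar macrophage sum and was not called in lung (log2 ratio 0.28, adjusted p = 0.343, limma). Of conventional dendritic cell markers 2 of 7 rose and 1 fell in lung (24900 to 33000 in mock and 87200 to 107000 in treated). H2-Eb1 gave most of both sums, with mean log2 levels of 14.37 in mock and 16.37 in treated lung, and Flt3 was the marker that fell (-0.83). Another gene of this list, Xcr1, was well above background on no lung array. Plasmacytoid dendritic cell markers, whose cells are rich in Tlr7 and Tlr9, rose for 3 of 10 and fell for 1 in lung (27500 to 32600 and 36800 to 37700), and rose for 3 in bone marrow (21300 to 29900 and 24300 to 34700). In lung 1 of 8 T cell markers rose and 2 fell (3110 to 3590 and 2900 to 3970), and 3 of 8 NK cell markers fell (3510 to 3990 and 2430 to 2770). The part of these cell types in the responses of Tlr2, Tlr4 and Myd88 in lung, and of Tlr6 and Tlr7 in bone marrow, was not tested.
Between the mock channels, 10 of 12 macrophage and 9 of 9 B cell markers were higher in lung, where 29.6% of all genes were. In bone marrow 10 of 13 neutrophil markers were higher, where 36.3% of all genes were. The part of these markers' cell types in the tissue differences of Cd14, Tlr2 and Tlr9 was not tested either.

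The rest of the pathway is given by lists of its other genes. The counts of each list stand beside the shares of all genes called. These were 7.25% higher and 7.12% lower in bone marrow, and 19.9% higher and 14% lower in lung. Among the transcription factors that end the pathway, 7 of 11 fell and 1 rose in bone marrow and 5 of 11 fell in lung. Their median log2 ratio was -0.57 in bone marrow and -0.25 in lung, and with median centring, where none was called, -0.08 and -0.04. Relb fell by 0.79 ± 0.12 in bone marrow and by 0.71 ± 0.07 in lung (SD, n = 3; adjusted p = 0.00157 and 0.000356, limma). Rela, the p65 subunit of NF-kappaB, fell by 0.68 ± 0.10 and by 0.53 ± 0.10 (SD, n = 3; adjusted p = 0.00235 and 0.00117, limma). Nfkb1, which encodes its p105 and p50 forms, fell by 0.82 ± 0.17 in bone marrow and by 0.32 ± 0.19 in lung (SD, n = 3; adjusted p = 0.00342 and 0.0327, limma). The interferon gene activator Irf7 fell by 0.70 ± 0.39 in bone marrow and by 0.74 ± 0.25 in lung (SD, n = 3; adjusted p = 0.0232 and 0.00731, limma), while Irf8, a monocyte and dendritic cell factor, rose by 0.38 ± 0.29 in bone marrow (SD, n = 3; adjusted p = 0.0494, limma). With the mean of all probes of a gene, Nfkb1 was at -0.49 in bone marrow and -0.37 in lung. Without bone marrow array 3, 3 of the 11 fell in bone marrow.

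Among other adaptors and proximal kinases, 5 of 19 fell in bone marrow and 7 of 19 in lung and none rose (limma; 0 and 2 rose at an unadjusted p under 0.05), with a median of -0.17 in each tissue. With median centring none was called and the medians turned to 0.18 and 0.04. Irak4, the kinase that MyD88 recruits, fell by 0.48 ± 0.08 in bone marrow and by 0.35 ± 0.07 in lung (SD, n = 3; adjusted p = 0.00499 and 0.00449, limma). Map3k7, which encodes the kinase TAK1, fell by 0.28 ± 0.10 and by 0.33 ± 0.04 (SD, n = 3; adjusted p = 0.0272 and 0.0058, limma). Btk fell by 0.68 ± 0.29 in bone marrow (SD, n = 3; adjusted p = 0.0175, limma), and Chuk, the IKK-alpha gene, fell by 0.52 ± 0.12 in lung (SD, n = 3; adjusted p = 0.00161, limma). So Myd88 and the kinase next to it were lower in treated lung cells, in which 2 of the receptors above them were higher. Without 1 of the bone marrow arrays, or without lung array 2, only 2 to 3 of the 19 fell in bone marrow.

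**Figure D4:**
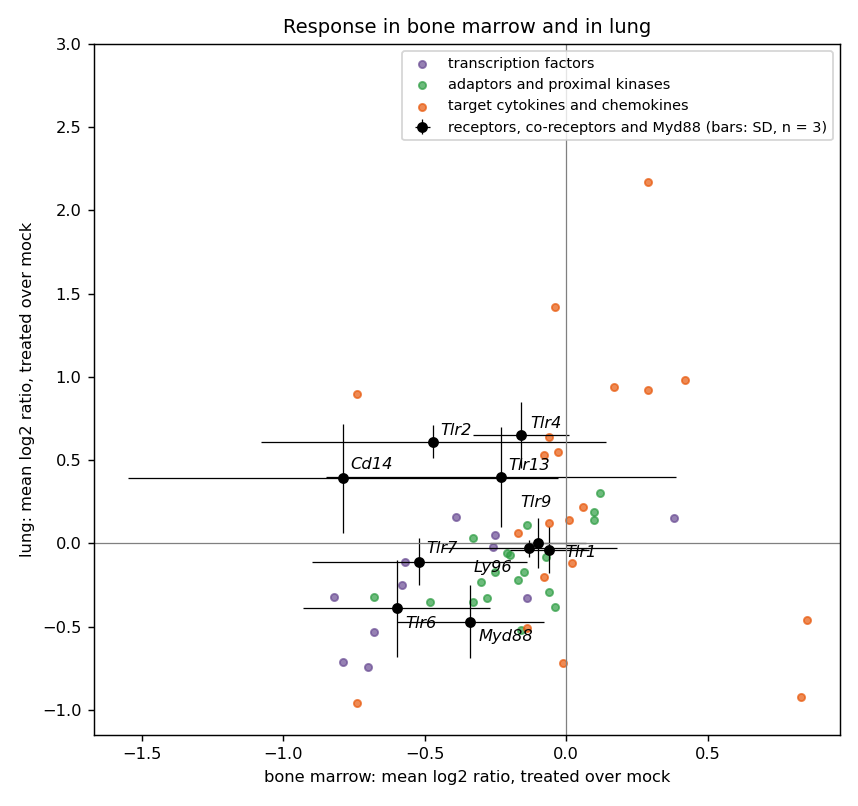
Mean log2 ratio of treated over mock in bone marrow (horizontal axis) against lung (vertical axis), the 10 genes in black with SD bars (n = 3) and 3 lists of pathway genes in colour. Tlr2, Tlr4, Tlr13 and Cd14 lie in the upper left, at lung values of 0.39 to 0.65, and most transcription factors lie in the lower left.

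Of the other Toll-like receptors, 1 of 5 fell in bone marrow, and in lung 3 of 5 rose and 1 fell. In bone marrow Tlr3, Tlr5 and Tlr12 were well above background on no mock array, and Tlr3 and Tlr11 on no treated array. The scanner's processed signals gave bone marrow ratios of 1.19 for Tlr5, 3.32 for Tlr12 and -2.28 for Tlr11 (adjusted p = 0.0352, 0.00152 and 0.00313, limma). The flagellin receptor gene Tlr5 rose by 0.70 ± 0.23 in lung (SD, n = 3; adjusted p = 0.00164, limma). Tlr12 rose there by 0.88 ± 0.78 and Tlr3, the double-stranded RNA sensor, by 0.23 ± 0.04, while Tlr11 fell by 0.50 ± 0.38 (SD, n = 3; adjusted p = 0.0373, 0.0266 and 0.0224, limma). Tlr8, the closest relative of Tlr7, fell by 0.51 ± 0.17 in bone marrow (SD, n = 3; adjusted p = 0.00841, limma) and had a lung ratio of -0.17 ± 0.08 (SD, n = 3; adjusted p = 0.138, limma). The 3 that rose in lung were 1 without lung array 1 or 2 and 2 without bone marrow array 1 or 2 or lung array 3, and none fell without lung array 3.

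Among accessory and trafficking proteins, 2 of 10 rose and 1 fell in bone marrow, and 4 of 10 rose and 2 fell in lung. The lipopolysaccharide-binding protein gene Lbp rose by 0.72 in both tissues (SD 0.32 and 0.38, n = 3; adjusted p = 0.0265 and 0.0111, limma). Cd36, a scavenger receptor that works with TLR2 and TLR6, rose by 1.47 ± 0.18 in lung (SD, n = 3; adjusted p = 7.58e-05, limma). Lgmn, an endosomal protease, rose there by 1.31 ± 0.19 and Cnpy4 by 0.41 ± 0.16 (SD, n = 3; adjusted p = 0.000749 and 0.00928, limma). Cd180 and Ly86, a pair of genes best known from B cells and relatives of TLR4 and MD-2, fell in lung by 0.30 ± 0.10 and by 0.41 ± 0.10 (SD, n = 3; adjusted p = 0.0388 and 0.0332, limma). In bone marrow Hsp90b1, the chaperone gp96 that folds these receptors, rose by 0.73 ± 0.19 and its co-chaperone gene Cnpy3 fell by 0.44 ± 0.05 (SD, n = 3; adjusted p = 0.00413 and 0.00638, limma).

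Among the 13 negative regulators tested, 1 rose and 1 fell in bone marrow, and 2 rose and 2 fell in lung. These counts lay near the shares of all genes called. Irak3, which encodes the inhibitory kinase IRAK-M, fell by 0.40 ± 0.19 in bone marrow and by 0.61 ± 0.12 in lung (SD, n = 3; adjusted p = 0.0252 and 0.00172, limma). Sigirr rose by 0.63 ± 0.05 in bone marrow, and Il1rl1, the interleukin-33 receptor gene, by 1.38 ± 0.34 in lung (SD, n = 3; adjusted p = 0.00574 and 0.000278, limma). With the mean of all its probes Il1rl1 rose by 0.63 (adjusted p = 0.00165, limma). Socs3 rose by 0.92 ± 0.26 in lung and Socs1 fell there by 0.73 ± 0.47 (SD, n = 3; adjusted p = 0.00391 and 0.0192, limma).

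Of the target cytokine and chemokine genes, 2 of 20 rose and 1 fell in bone marrow, and 7 of 20 rose and 2 fell in lung, with medians of -0.02 and 0.18. The 7 became 10 without lung array 1 and 3 without lung array 2 or 3, and the lung median 0.43, 0.11 and 0.09. Ccl2, the monocyte-attracting chemokine, rose by 2.17 ± 0.44 in lung, Il1a by 1.42 ± 0.19 and Ccl4 by 0.94 ± 0.41 (SD, n = 3; adjusted p = 0.000245, 6.28e-05 and 0.00197, limma). The costimulatory receptor gene Cd40 fell by 0.74 ± 0.35 in bone marrow and by 0.96 ± 0.25 in lung (SD, n = 3; adjusted p = 0.0162 and 0.00192, limma). Ccl5 rose by 0.83 ± 0.35 in bone marrow and fell by 0.92 ± 0.09 in lung (SD, n = 3; adjusted p = 0.00709 and 0.00131, limma), and Cxcl10 rose by 0.85 ± 0.17 in bone marrow (SD, n = 3; adjusted p = 0.0462, limma). With the mean of all its probes Cxcl10 was at 0.52 in bone marrow (adjusted p = 0.124, limma).

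Of the 17 bone marrow calls of the pathway genes named from the top of each list, 9 were kept when any array was left out: Relb, Rela, Nfkb1, Irak4, Tlr8, Cnpy3, Hsp90b1, Sigirr and Ccl5. Those of Btk (without bone marrow array 1 or 3), Cd40 (2 or 3), Irf7 (2 or 3), Lbp (1 or 2) and Irak3 (1, 2 or 3) were lost at adjusted p up to 0.0693, 0.073, 0.118, 0.127 and 0.0931 (limma). Map3k7 (bone marrow array 1 or 2, or lung array 2), Cxcl10 (any bone marrow array or lung array 2) and Irf8 (bone marrow array 2 or 3, or lung array 2 or 3) were lost at adjusted p up to 0.129, 0.176 and 0.247 (limma). Of the 26 lung calls, 17 were kept. Nfkb1 and Lbp were lost without lung array 2 or 3, at adjusted p up to 0.168 and 0.0672 (limma). Cnpy4 and Tlr11 were lost without lung array 3, Socs1 without lung array 1, and Tlr3 without any lung array, at adjusted p up to 0.0558, 0.0675, 0.0631 and 0.0939 (limma). Cd180 and Ly86 were lost without any lung array or bone marrow array 1, and Tlr12 without bone marrow array 1 or 2 or lung array 1 or 2, at adjusted p up to 0.148, 0.119 and 0.118 (limma). With median centring 7 of these lung calls remained, those of Ccl2, Cd36, Il1a, Il1rl1, Lgmn, Socs3 and Tlr5, and none of the bone marrow calls. Scaling between arrays ended the bone marrow calls of Btk, Lbp and Map3k7 and the lung calls of Irak4, Map3k7, Lbp, Nfkb1 and Ly86. Fitting each tissue separately ended those of Map3k7 and Irf8 in bone marrow and of Tlr11, Tlr12 and Nfkb1 in lung. The replicate block ended those of Lbp and Irf8 in bone marrow and of Nfkb1, Cd180 and Tlr12 in lung. The mean of all probes ended those of Map3k7 and Cxcl10, the absence of a filter on dim probes those of Cxcl10 and Irf8 and the deposited matrix that of Irf8, all in bone marrow. The processed signals ended the lung calls of Ly86 and Tlr12. They gave larger log2 ratios for Tlr3 (0.77), Tlr5 (1.14), Tlr11 (-1.27), Cd180 (-0.59) and Il1a (2.30) in lung and for Ccl5 (1.41) and Cd40 (-1.32) in bone marrow.

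The genes whose log2 ratios over the 6 arrays lay nearest to those of each called member are named by the root mean square difference, over 16495 genes with a symbol. For Tlr4 these were Tmem86a (0.052) and P3h2 (0.079), and Fgd3 (0.167) is given for Tlr2. Ptprc (0.063) and Pim3 (0.088) lay nearest to Myd88, Ncf4 (0.087) and Neurl2 (0.089) to Tlr7, and Sema4d (0.103) and Susd3 (0.118) to Tlr6. Ptprc, which encodes the leukocyte antigen CD45, read -0.19, -0.24 and -0.67 in bone marrow and -0.61, -0.32 and -0.42 in lung, so it shared with Myd88 a low bone marrow array 3 and a low lung array 1.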

How the data were processed

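Expression was measured on 6 dual-colour Agilent whole-genome mouse arrays, 3 of bone marrow and 3 of lung M-MDSCs, from around 400 ng of total RNA per the labels. Spot intensity per channel was deposited by the authors as the output of Agilent Feature Extraction 10.7.3.1, per the file headers. The log10 ratios and processed signals in the same files were background-subtracted and dye-normalized by that software, per the file headers. The authors also deposited a matrix of log2 ratios for each tissue, and limma is named in the submitters' processing notes. Its headings name the ratio mock over treated, but its values equalled Cy5 over Cy3 (treated over mock per the labels) with slopes of 0.9986 to 1.0011 on normexp-corrected median signals, so that direction was used. The medians of its columns lay between -0.0138 and 0.009561.

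Mean signals were corrected with normexp (offset 50) on the local background and normalized within arrays by loess in R 4.3.3 with limma 3.58.1. Control spots had weight 0, outlier spots were left out, and spots of a probe were averaged. Of 39429 probes, 27726 were well above background on at least 2 arrays of 1 tissue and channel. Each gene was read from its brightest probe, which left 22127 genes, of which 5628 are known by an identifier only. Gene names came from the scanner files, updated through RefSeq identifiers for 26581 probes, by symbol for 2597 and by synonym for 492. The fit had 1 mean per tissue over all 6 arrays (4 residual and 3.49 prior degrees of freedom), with eBayes and Benjamini-Hochberg adjustment over all genes. Mock levels were compared on Cy3 after loess and Aquantile normalization. The fit was tested on simulated data.

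The members and gene lists were chosen with earlier results of these data known. Named pathway genes are up to 3 per list, tissue and direction with the smallest p among those called, and the nearest genes are the 2 with the smallest root mean square difference, of which 1 is not reported here. Alternatives were other background corrections, normalizations, probe filters, fits and leaving out each array.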

Additional observations from a re-analysis of the deposited data

Results flagged for a closer look

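The response to treatment differed between lung and bone marrow, by the fit's own test of the difference (limma, adjusted p under 0.05), for 2 of the 10 members and for 13 of the 33 pathway genes named from the lists. Those 33 were picked for a small p in a tissue; of the 78 pathway genes tested, 15 differed (19.2%), against 15.2% of all genes. Each difference below is the lung log2 ratio minus the bone marrow log2 ratio, with 3 arrays in each tissue. Tissue, slide and scan cannot be told apart in any of them.

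Higher in lung were Tlr2 by 1.08 and Tlr4 by 0.81, among the members. For Tlr4 every lung array was above 0 and every bone marrow array below it. Among pathway genes the lung ratio was higher for Ccl2 by 1.88, Cd36 by 1.57, Il1a by 1.46, Lgmn by 1.45, Socs3 by 1.36, Il1rl1 by 1.19, Ccl4 by 0.78, Tlr5 by 0.57 and Nfkb1 by 0.50. It was lower for Ccl5 (-1.75), Cxcl10 (-1.31), Hsp90b1 (-0.65) and Sigirr (-0.60). Il1a was well above background on no bone marrow array in either channel, so its bone marrow ratio, and with it the size of its difference, is undetermined. Tlr5 and Il1rl1 were so on no mock bone marrow array, and their bone marrow ratios carry only a bound. With the scanner's processed signals the differences of Tlr5 and Il1rl1 turned to -0.05 and -0.16, and those of Nfkb1 and Ccl4 were lost (adjusted p = 0.155 and 0.064, limma). With median centring none of the differences listed here was called, and the lowest adjusted p was 0.062, for Cd36 (limma). Scaling between arrays ended those of Ccl2, Ccl4, Sigirr and Nfkb1 (adjusted p = 0.0682, 0.106, 0.0662 and 0.233, limma). With the mean of all probes of a gene those of Il1rl1, Nfkb1 and Cxcl10 were 0.53, 0.12 and -0.52 (adjusted p = 0.0287, 0.453 and 0.247, limma). With 3 arrays in each tissue, no array was tested for standing apart from its group.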

How the results depend on the processing

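The direction of the mean Tlr4 and Tlr2 rises and Myd88 fall in lung, and of the mean Tlr6 and Tlr7 falls in bone marrow, was the same under every alternative run. The 2 bone marrow falls were small with median centring, at -0.21 for Tlr6 and -0.05 for Tlr7 (adjusted p = 0.542 and 0.896, limma). Bone marrow arrays 1 to 3 then read -0.78, 0.19 and -0.06 for Tlr6 and -0.69, 0.41 and 0.13 for Tlr7. Median centring within arrays gave 0 members called in bone marrow, lung and their difference, and 4 between mock tissues, with 0, 963, 33 and 8098 genes called in all (limma; 3954 had an unadjusted p under 0.05 in bone marrow). With it the bone marrow ratios turned to 0.33 for Tlr1, 0.07 for Tlr2, 0.20 for Tlr4, 0.42 for Tlr9, 0.36 for Tlr13, 0.29 for Ly96 and 0.21 for Myd88, the lung ratios to 0.17 for Tlr1, 0.11 for Tlr7 and 0.18 for Ly96, and the differences to -0.16, -0.20 and -0.11 for Tlr1, Tlr9 and Ly96. The cause was not tested. The scanner's processed signals turned the lung ratio of Tlr9 to -0.05, the difference of Tlr1 to -0.02 and the mock difference of Tlr13 to 0.19. They left 1 member in the difference and gave 6475 genes in bone marrow, and background from negative control spots gave 5495 there, against 3181. Corrected negative control spots read 240.3 in Cy5 on bone marrow array 1 and 87 on lung array 2, and 13.32 to 15.97 on the others.

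Each tissue fitted separately left 1 member in bone marrow. The replicate block left 1 member called in bone marrow (Tlr6), 2 in lung (Tlr4 and Myd88) and 1 in the difference (Tlr4), with 2449, 7021, 2861 and 13543 genes called in bone marrow, lung, the difference and mock. Deviations of same-numbered arrays correlated at 0, 0.116 and 0.047, and those of differently numbered arrays at -0.121 to 0.042. All were small, and the numbers were taken as names only. The 0.116 and 0.047 were the highest of all pairs, so a pairing was not excluded. Leaving out each array in turn gave 0 to 2 members in bone marrow (980 to 4069 genes), 1 to 5 in lung (5131 to 7767), 1 to 3 in the difference (1496 to 2820) and 7 to 8 in mock (12757 to 14503). Over the same fits the ratio ran from -0.11 to 0.01 (bone marrow) and -0.11 to 0.03 (lung) for Tlr1, from -0.24 to 0.05 for Ly96 and -0.49 to 0.11 for Tlr13 in bone marrow, and from -0.08 to 0.07 for Tlr9 in lung. The difference ran from -0.06 to 0.09 for Tlr1 and from -0.08 to 0.20 for Ly96. By the scanner's calls of signal well above background, only the dim Tlr7 probe was limited among the members. The size of a ratio could still move with the processing. Tlr6 on bone marrow array 1 read -0.47, but -0.71 with processed signals and -0.57 with background from negative control spots.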
